A study of Mus musculus with 9 samples.

Results

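The genes described here are 9 markers of the primitive streak and of Wnt signalling, T (Brachyury), Eomes, Mixl1, Gsc, Cer1, Fgf8, Sp5, Axin2 and Lef1. They were taken by symbol from a table of 24132 RefSeq gene symbols, and each symbol was found in 1 row. Their RNA was followed by RIPiT-seq, in which RNA bound to a protein with a FLAG and an HA tag is purified through the first tag and then through the second. The cells were V6.5 mouse embryonic stem cells (ESCs), a line of mixed 129 and C57BL/6 background grown without feeders in medium with LIF. WDR5 is a core subunit of the MLL complexes that methylate histone H3 at lysine 4, and F266A is a mutant made to lose RNA binding through the exchange of a phenylalanine for alanine. The comparison of WT with F266A and empty vector IPs asks which RNAs are recovered through the RNA binding surface of WDR5.

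There were 3 lines and 9 libraries. The empty vector line was transduced with the lentiviral backbone and carried no tagged protein. The WT line carried FLAG-HA-tagged human WDR5 WT, and the F266A line carried FLAG-HA-tagged human WDR5 F266A from a construct that is shorter at its N terminus. Tagged lines were isolated clones chosen for a protein level near that of endogenous WDR5, so line and clone cannot be told apart. Mouse Wdr5 was left in place in all 3 lines, and cells of all lines were fixed with formaldehyde. Each line gave 2 IP libraries and 1 input library, and the input had no replicate. The sources used here do not say whether both IPs of a line came from separate cultures, so p-values measure the spread between these libraries.

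In the embryo, canonical Wnt signals stabilise β-catenin, which enters the nucleus and activates genes together with TCF and LEF factors. Wnt3 and Nodal signals in the posterior epiblast switch on T, Eomes and Mixl1 and thereby form the primitive streak, from which mesoderm and definitive endoderm arise. ESCs kept with LIF stay pluripotent, and streak genes in such cultures are known to be low and to vary between cells. Axin2, Sp5 and Lef1 are widely used readouts of β-catenin activity.

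The bases before the annotated start are shown for Sp5, T, Axin2 and Lef1, since β-catenin acts through TCF and LEF sites in such regions. Of the members in the promoter set used, Sp5, T and Lef1 were highest in F266A IP replicate 1. Lef1 and Axin2 passed the filter on low values. The sequences are RefSeq promoters (GRCm38.p6), and each 250-base stretch was placed on mm9 by its single exact match. Capitals mark the TCF/LEF motifs CTTTGAT and CTTTGTT, read on both strands. 7 of the 9 members had an entry in the promoter set used, and for Lef1 the first of 4 is shown. Mixl1 and Fgf8 had none in that set.
Sp5, chr2:70312730-70312979, plus strand: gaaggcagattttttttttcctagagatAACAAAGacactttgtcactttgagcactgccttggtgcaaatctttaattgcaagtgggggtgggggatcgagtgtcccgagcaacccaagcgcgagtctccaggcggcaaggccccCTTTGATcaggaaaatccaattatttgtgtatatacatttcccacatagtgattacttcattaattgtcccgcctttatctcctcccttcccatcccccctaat
T, chr17:8627038-8627287, plus strand: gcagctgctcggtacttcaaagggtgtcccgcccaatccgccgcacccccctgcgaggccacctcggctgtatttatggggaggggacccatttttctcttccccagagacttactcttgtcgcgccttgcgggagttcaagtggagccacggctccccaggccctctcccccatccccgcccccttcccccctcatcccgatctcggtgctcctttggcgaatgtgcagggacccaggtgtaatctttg
Axin2, chr11:108781413-108781662, plus strand: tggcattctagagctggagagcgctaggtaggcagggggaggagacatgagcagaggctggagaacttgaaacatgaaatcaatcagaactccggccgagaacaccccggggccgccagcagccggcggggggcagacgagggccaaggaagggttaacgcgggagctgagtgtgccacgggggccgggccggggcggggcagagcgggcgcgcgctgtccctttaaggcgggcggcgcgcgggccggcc
Lef1, chr3:130812965-130813214, plus strand: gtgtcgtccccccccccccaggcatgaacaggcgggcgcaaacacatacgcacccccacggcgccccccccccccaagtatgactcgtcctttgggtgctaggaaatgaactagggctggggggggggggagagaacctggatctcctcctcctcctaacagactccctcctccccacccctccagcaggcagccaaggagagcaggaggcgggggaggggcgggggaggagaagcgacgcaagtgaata

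Of these 7 members, Sp5 alone held a match. Its promoter has CTTTGAT at bases -104 to -98 and CTTTGTT on the opposite strand (printed as AACAAAG) at bases -222 to -216, counted back from the start. Of 32851 mouse promoters of the same length, 3.21% held CTTTGAT, 5.03% held CTTTGTT and 0.174% held both. GTGTGA, a core of T-box sites, stands in 12.3% of all promoters, AATCCACA, a Foxh1 site, in 0.718%, and TAATCC, bound by Gsc-type homeodomains, in 6.25%. None of these 3 was found in a promoter of the 7 members, which says only that the letters are not in these windows. The share of G and C was 46.0% in the promoter of Sp5, 62.8% in that of T, 69.2% in that of Axin2 and 66.4% in that of Lef1, against a median of 52.4% over all promoters.

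The values are RPKM, which divides reads by the length of the transcript and by the number mapped in that library, so that levels of different genes can be set side by side. Depth was estimated from the lowest RPKM and exon length and lay between 13400000 and 50200000 mapped reads a library. All libraries had the RNA of pluripotent cells, and the RPKM of 8 ESC markers summed to between 417 and 679. By contrast, 18 markers of primitive endoderm, an extraembryonic cell type that ESC cultures can contain, summed to 60.9 in the F266A input and 76.9 in F266A IP replicate 2, and to between 23.9 and 31.1 in the other 7 libraries. Of these markers 14 were highest in F266A IP replicate 2, as were 17.9% of all 20431 symbols with a value above 0. Afp and Ttr, which mark later visceral endoderm, were at 0 in every library. The RPKM of Gata4, a defining regulator of this cell type, came to 1.90 for the F266A input, 2.69 for IP replicate 2 of F266A and 0.695 for its IP replicate 1, with at most 0.171 elsewhere. Gata6, another, was 0.777 and 0.936 in the first 2 of these and at most 0.0615 in the other 7 libraries. F266A IP replicate 1 also stood apart in Y-linked RNA. The RPKM of Eif2s3y, Ddx3y and Uty, a set picked once the values were known, summed to 0.0383 there, against 4.43 in the F266A input and 7.21 in the other F266A IP. This sum was between 7.41 and 9.48 in the empty vector libraries and between 0.182 and 0.324 in the WT libraries. F266A IP replicate 1 thus went against the other libraries of its label, and whether it came from the same clone was not tested. The comparisons of F266A IPs below are given with and without it.

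The 9 genes were all weakly expressed. Lef1 and Axin2 had the highest mean RPKM over the 9 libraries, 1.29 and 1.18, followed by Eomes with 0.397 and Mixl1 with 0.188. T followed with 0.0546, Sp5 with 0.0543, Gsc with 0.0381, Fgf8 with 0.0273 and Cer1 with 0.00517. Lef1 and Axin2 were above RPKM 1 in 6 and 7 libraries, and the other 7 members stayed below 1 in every library. A filter that asked for an RPKM of 1 in 2 or more libraries therefore kept 2 of the 9 members among the 9787 genes tested. Axin2 was above Eomes in every library, and the ranges of all other neighbours in this order overlapped. Over the 9 libraries, T, Sp5, Gsc, Fgf8 and Cer1 together had an estimated 77 reads, so their values rest on single reads in many libraries.

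**Figure D1:**
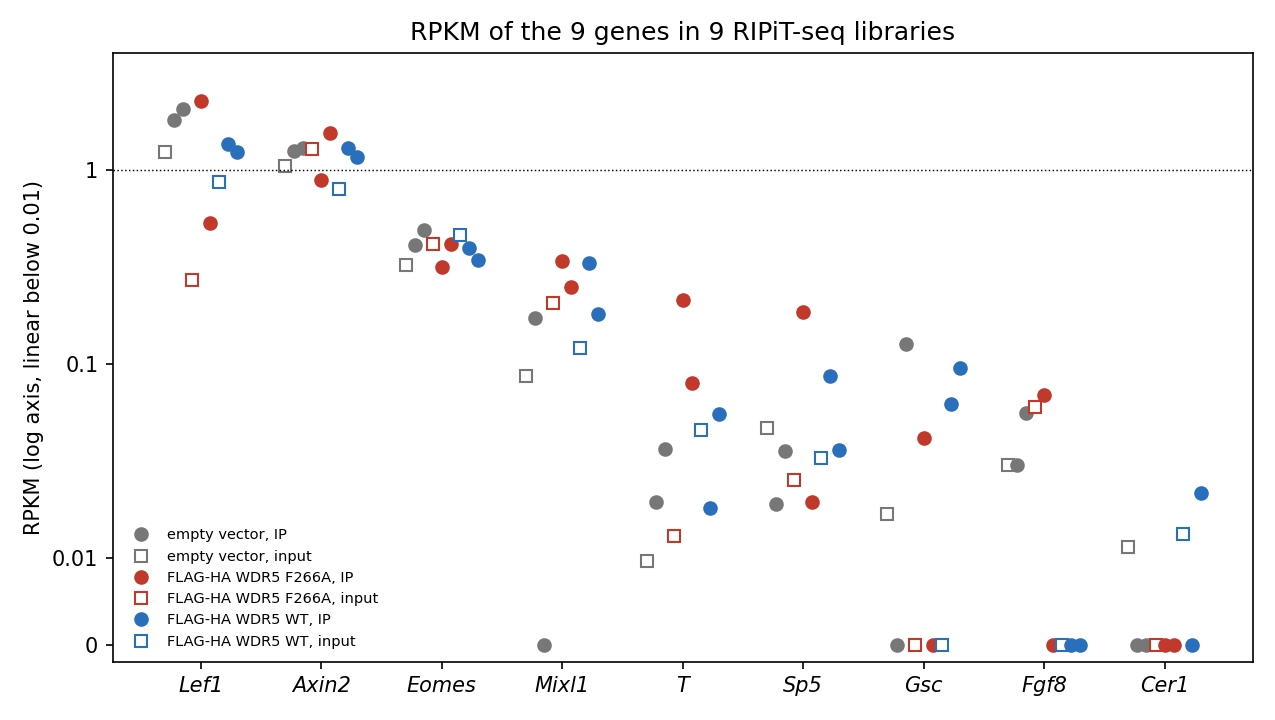
RPKM of the 9 genes (log axis, linear below 0.01) in each library, with IPs as filled circles and inputs as open squares, coloured by line; the dotted line is RPKM 1. Lef1 in the F266A line spans 0.272 to 2.27, while Eomes lies between 0.318 and 0.491 in all 9 libraries.

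F266A IP replicate 1 held the highest value of 5 of the 9 members, Lef1, Mixl1, T, Sp5 and Fgf8. Of all 20431 symbols with a value above 0, 18.7% were highest in this library, and of the 10153 such symbols that stayed below RPKM 1, 15.8% were. The other 4 members were highest in other IPs, Axin2 in F266A IP replicate 2, Eomes and Gsc in empty vector IP replicate 2 and Cer1 in WT IP replicate 2.

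Lef1 encodes an HMG-box factor that binds β-catenin and carries it to Wnt target genes, and it lies on the plus strand of mm9 chromosome 3 (130813389 to 130927274). The empty vector input had an RPKM of 1.23, and its IPs had 1.81 and 2.07. The WT input had 0.867 and its IPs 1.36 and 1.24. The F266A input had 0.272, IP replicate 1 had 2.27 and IP replicate 2 had 0.536. The F266A line thus held both the highest and the lowest value of Lef1. These values rest on an estimated 88 to 534 reads, and the 95% Poisson intervals of both F266A IPs, 2.05 to 2.503 and 0.441 to 0.643, did not overlap. Such intervals cover counting error only, because amplified copies of a molecule are not independent.

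Lef1 was 4.24 times higher in F266A IP replicate 1 than in replicate 2, a gap of 1.09 on the scale of log2 (RPKM + 1). The same gap was -0.13 between the empty vector IPs and 0.07 between the WT IPs. Between the F266A IPs, 62 of the 9787 tested genes (0.633%) differed by at least as much as Lef1, and the median gap was 0.16. The F266A input and F266A IP replicate 2 were both below the other 7 libraries for Lef1, by a ratio of at least 1.62, and 67 tested genes (0.685%) shared this order with a ratio as large. Both of these libraries had the high sum of primitive endoderm markers given above, against 24.5 in F266A IP replicate 1. The abundant markers Sparc, Lama1 and Lamb1 made up 17.5 of this 24.5. The other 15 markers summed to 6.94 there, to 22.8 and 30.7 in the F266A input and IP replicate 2, and to between 1.68 and 3.51 in the empty vector and WT libraries. F266A IP replicate 1 was thus between both sets of libraries by this sum, and 9 of the 16 markers above 0 were higher in it than in all 6 empty vector and WT libraries. The share of all genes with this order is not given, so nothing more is read from this count. The part of the endoderm markers, or of the missing Y-linked RNA, in the values of Lef1 was not tested. In bulk RNA of this kind, fewer cells that express Lef1 and less Lef1 RNA per cell cannot be told apart.

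**Figure D2:**
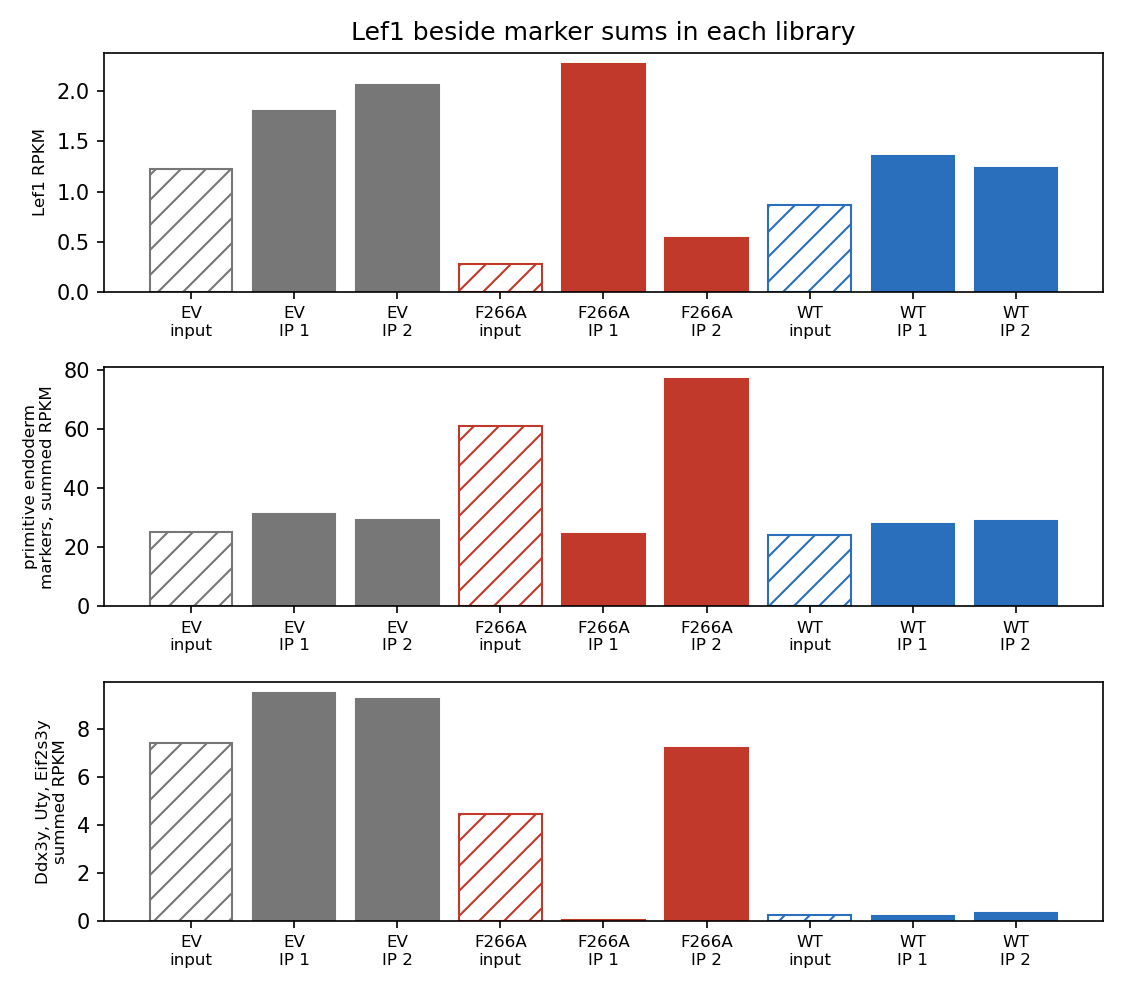
RPKM of Lef1, summed RPKM of 18 primitive endoderm markers and summed RPKM of 3 Y-linked genes in each library (EV, empty vector; hatched bars, inputs; filled bars, IPs). The F266A input and IP 2 are low in Lef1 and high in endoderm markers, and F266A IP 1 is high in Lef1 with a Y-linked sum of 0.0383.

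Axin2 encodes a scaffold of the β-catenin destruction complex and is itself induced by Wnt signals, which makes it a negative feedback gene. It lies on the plus strand of chromosome 11 (108781663 to 108812097) and shares 209 exon bases with Gm11670 on the opposite strand, whose reads cannot be told apart without strand information. The empty vector input had an RPKM of 1.05, and its IPs had 1.26 and 1.29. The F266A input had 1.29, IP replicate 1 had 0.887 and IP replicate 2 had 1.55. The WT input had 0.801 and its IPs 1.29 and 1.16. Levels of Axin2 overlapped between all 3 lines. Axin2 went the other way from Lef1 between the F266A IPs, as it was 1.75 times higher in replicate 2 than in replicate 1, and 11.7% of tested genes differed by at least as much. The 95% Poisson intervals of these IPs, 0.722 to 1.08 and 1.35 to 1.78, did not overlap.

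**Figure D3:**
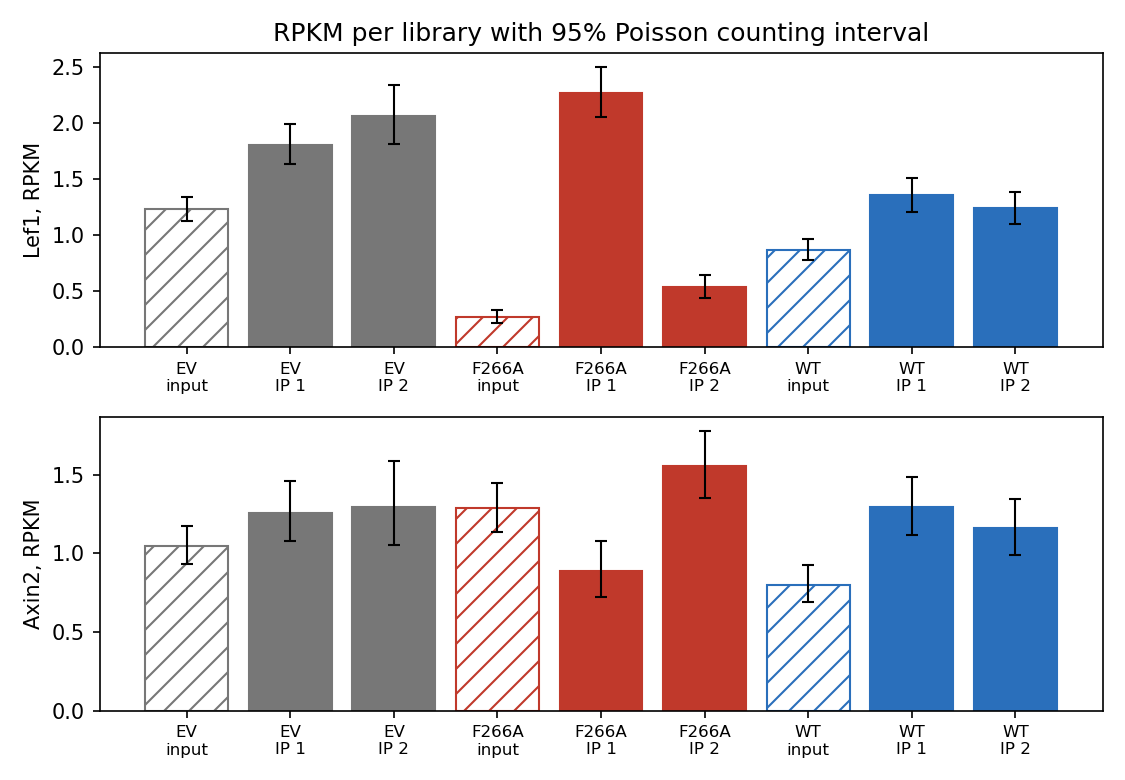
RPKM of Lef1 and Axin2 in each library (EV, empty vector; hatched bars, inputs; filled bars, IPs) with 95% Poisson intervals of the estimated reads, which cover counting error only. Both F266A IPs lie apart by more than their intervals, with Lef1 higher in IP 1 and Axin2 higher in IP 2.

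Recovery in the IP was measured as an enrichment score, log2 (RPKM + 1) of the IP minus that of the input of its line, a scale that understates the change of genes with low RPKM. Lef1 was above its input in 6 of 6 IPs, with scores of 0.33 and 0.46 in the empty vector line, 1.36 and 0.27 in the F266A line and 0.34 and 0.26 in the WT line. The same held for 66.3% of the tested genes, and IPs of the line without a tag were among them. The higher WT score of Lef1 lay between both scores of the line without tagged protein, and the lower one was the lowest of the 6. The score of F266A IP replicate 1 was the highest, and Lef1 had there 8.35 times the RPKM of the F266A input, from which this library differed in Y-linked RNA.

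Axin2 had scores of 0.35 and 0.26 in the WT line, 0.14 and 0.16 in the empty vector line and -0.28 and 0.16 in the F266A line. Both WT scores were thus above all 4 control scores, by a margin of 0.10. This is the condition by which the study defined enriched RNAs, in which the lower WT score has to exceed 0 and every score of both controls. The study states no pseudocount and used a wider set of transcripts, so the counts given here are not its counts. Axin2 was the 1 of 9 members that met this condition, and 4.79% of all symbols and 5.29% of the tested genes did. The WT input held the lowest Axin2 value of all 9 libraries, and the WT IPs alone lay within the range of the 4 control IPs. With the mean of the 3 inputs in place of the input of each line, 0 members met the condition. Without F266A IP replicate 1, Sp5 met it beside Axin2, with a lower WT score of 0.00419 from 2 reads. Cer1, Mixl1 and Gsc each met it as a second member when 1 other IP was left out. These IPs were WT IP replicate 1, WT IP replicate 2 and empty vector IP replicate 2, in this order. More of all symbols also met it with 1 IP left out, 1426 or more against 1157 with all IPs. Leaving out an IP takes a score out of the condition, so symbols can join but none can be lost. The direction of these changes was therefore fixed in advance.

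Groups were compared with limma on log2 (RPKM + 1) over the 9787 tested genes, and a gene passed when its p-value after Benjamini-Hochberg adjustment was under 0.05. Neither Lef1 nor Axin2 passed in any of the 5 comparisons, and 1 of the 10 unadjusted p-values was under 0.05. The shares of all tested genes that passed were 4.55% for F266A against empty vector IPs, 1.16% for WT against F266A IPs, 0.00% for WT against empty vector IPs, 56.9% for all IPs against all inputs and 0.00% for the enrichment of WT against the mean of both controls. These comparisons share libraries and are not independent of each other.

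For F266A against empty vector IPs, the difference of Lef1 was -0.39 with a standard error of 0.30 (95% interval -1.07 to 0.30, limma adjusted p = 0.499). Without F266A IP replicate 1 this difference was -0.93 with a standard error of 0.15 and passed (adjusted p = 0.0200), in a fit where 2.75% of the tested genes were lower in F266A and the lone F266A IP was assumed to vary like the other pairs. Fitted over all symbols above 0, the same libraries gave a difference of -0.93, or -1.68 with a pseudocount of 0.1, and the call was lost with either. The primitive endoderm markers were read from the fit over the 9787 tested genes without F266A IP replicate 1. In that fit 7 of the 9 tested primitive endoderm markers were higher in F266A than in the empty vector IPs, as were 2.16% of all tested genes. With all libraries 0 of these markers passed in limma, and without F266A IP replicate 2 Lrp2 alone was higher, as were 0.787% of tested genes. Without F266A IP replicate 2 the difference of Lef1 was 0.16 (adjusted p = 0.603). Adjusted p-values of this difference ran from 0.0200 to 0.792 over the 12 alternatives. The level of Lef1 in the F266A IPs therefore rested on which F266A library was used. Of the 8 ESC markers, Pou5f1 alone passed in this comparison with all libraries, as lower under the F266A label. Its RPKM was 81.1 and 74.9 for the empty vector pair, against 36.3 and 52.0 for the F266A pair. The median difference of these 8 markers was -0.35, while that of all tested genes was -0.005. None of the 8 passed for WT against F266A IPs. The cause of the lower Pou5f1 values was not tested.

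For WT against F266A IPs, Lef1 differed by 0.04 with a standard error of 0.30 (95% interval -0.65 to 0.72, limma adjusted p = 0.974). This difference was 0.58 without F266A IP replicate 1 and -0.51 without F266A IP replicate 2, with adjusted p-values of 0.105 and 0.159. For WT against empty vector IPs, both WT values of Lef1 (1.36 and 1.24) were below both empty vector values (1.81 and 2.07). Their difference was -0.35 with a standard error of 0.30 (95% interval -1.04 to 0.33, adjusted p = 0.895) and passed in none of the 12 alternatives.

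Axin2 differed by -0.05 with a standard error of 0.16 for F266A against empty vector IPs (95% interval -0.42 to 0.32, limma adjusted p = 0.892). It differed by 0.02 for WT against F266A IPs (-0.35 to 0.39, limma adjusted p = 0.972) and by -0.03 for WT against empty vector IPs (-0.40 to 0.34, limma adjusted p = 0.988). Differences of up to 0.42 in size lie within these intervals. Without F266A IP replicate 1, Axin2 differed by 0.17 for F266A against empty vector IPs and by -0.20 for WT against F266A IPs (adjusted p = 0.532 and 0.517).

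Against the inputs, Lef1 was higher in the IPs by 0.50 with a standard error of 0.21 (95% interval 0.02 to 0.99). It missed the threshold (limma, unadjusted p = 0.0429, adjusted p = 0.0684). With replicate number as a block it passed (limma adjusted p = 0.0463), though replicate numbers did not pair the libraries. The median of all tested genes in this comparison was 0.30. Lef1 passed without F266A IP replicate 1 (0.32, adjusted p = 0.0214), as did 58.4% of tested genes in that direction. It also passed without F266A IP replicate 2 (0.69, adjusted p = 0.00252, as did 59.4%) and with a pseudocount of 0.1 (0.96, adjusted p = 0.0492), with adjusted p-values of 0.00252 to 0.607 over the 11 alternatives. Fitted over all symbols above 0 without F266A IP replicate 1, Lef1 was 0.32 higher in the IPs and did not pass. With a pseudocount of 0.1 it was 0.64 higher in that fit and passed. Without F266A IP replicate 2 it was 0.69 higher, or 1.27 with a pseudocount of 0.1, and passed with either. After centring each library on its median, Lef1 was 0.19 higher in the IPs. Axin2 was 0.13 higher in the IPs before centring with a standard error of 0.11 (limma adjusted p = 0.324), and its difference was -0.18 after it. The uncentred difference of Axin2 was 0.21 without F266A IP replicate 1 (adjusted p = 0.0726). The share of reads on genes was 20.1% to 22.6% in the inputs and 27.2% to 29.5% in the IPs, and its part in these values was not tested.

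The enrichment of WT against the mean of both controls, in which each IP is set against the input of its line, was -0.31 for Lef1 with a standard error of 0.45 (95% interval -1.33 to 0.72). For Axin2 it was 0.26 with a standard error of 0.24 (-0.30 to 0.82), an interval that includes 0. This error takes the inputs, which have no replicate, to vary like the IPs. It is not an error of the margin by which Axin2 met the condition of the study. That margin itself was not tested. Lef1 and Axin2 both had a limma adjusted p that rounds to 1. In this comparison 135 of the tested genes had an unadjusted limma p under 0.05, Lef1 and Axin2 not among them. Without F266A IP replicate 1 this enrichment was -0.04 for Lef1 and 0.15 for Axin2, and without F266A IP replicate 2 it was -0.58 and 0.37, with limma adjusted p-values that round to 1 in each case.

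**Figure D4:**
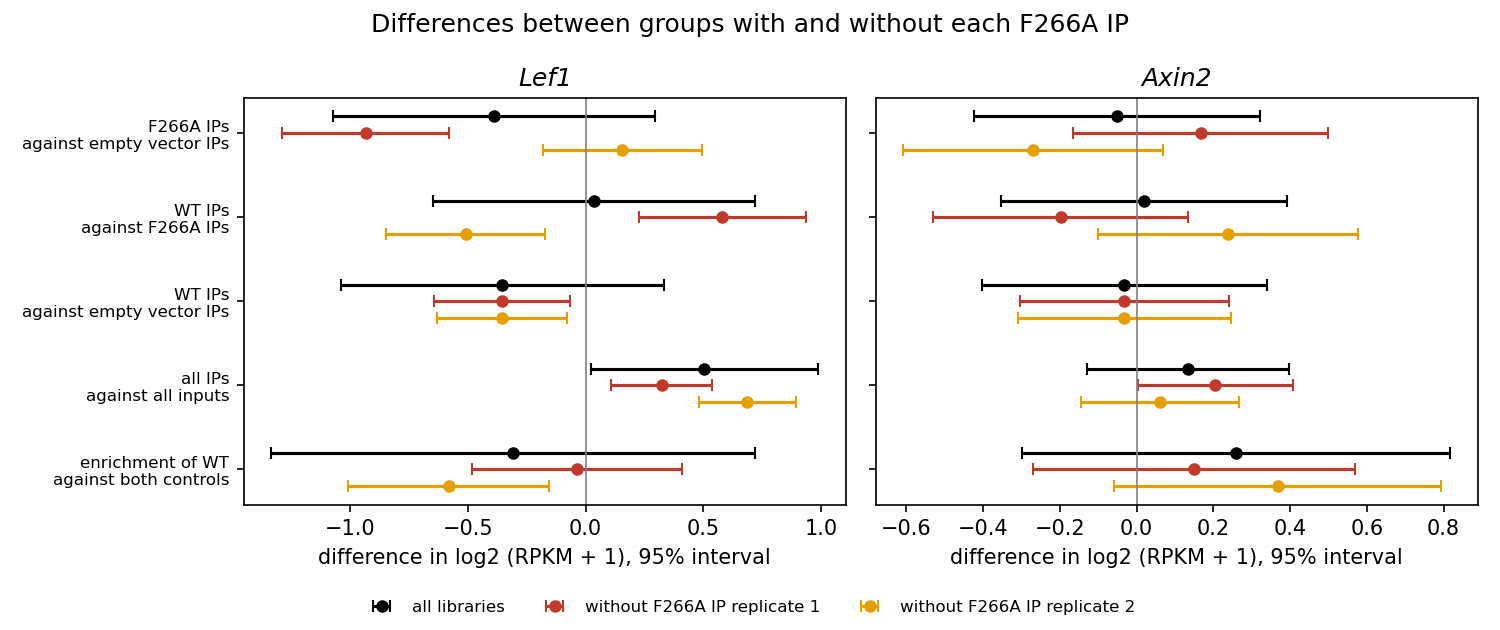
Differences in log2 (RPKM + 1) of Lef1 and Axin2 with 95% intervals from limma, with all libraries and without either F266A IP; the horizontal axes of both panels differ. Between the fits without F266A IP replicate 1 and without replicate 2, the differences of F266A from empty vector IPs and of WT from F266A IPs change sign. For Lef1 against the empty vector they are -0.93 and 0.16. The differences of all IPs from inputs and the enrichment of WT keep their sign. WT against empty vector IPs holds no F266A library, so its difference cannot change.

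Sp5 encodes a zinc finger repressor that is a direct target of β-catenin, and its promoter is the first of those printed above. It lies on the plus strand of chromosome 2 (70312980 to 70315786). The empty vector input had an RPKM of 0.0470, and its IPs had 0.0191 and 0.0356. The F266A input had 0.0254, IP replicate 1 had 0.186 and IP replicate 2 had 0.0196. The WT input had 0.0330 and its IPs 0.0868 and 0.0360. The value of F266A IP replicate 1 was 2.14 times the next highest, that of WT IP replicate 1. An estimated 8 reads lie behind it and 1 to 5 reads behind each other value, and its 95% Poisson interval, 0.0804 to 0.367, overlapped those of the other libraries.

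T encodes the T-box factor Brachyury, which is needed for the extension of the streak and for mesoderm, and lies on the plus strand of chromosome 17 (8627288 to 8635361). The empty vector input had an RPKM of 0.00972, and its IPs had 0.0195 and 0.0363, with 1 read in each. The WT input had 0.0456 and its IPs 0.0182 and 0.0552, with 1 to 5 reads. The F266A input had 0.0130, IP replicate 1 had 0.214 and IP replicate 2 had 0.0799, with an estimated 1, 10 and 5 reads. Both F266A IPs were thus the highest libraries for T, replicate 1 by 2.67 times over replicate 2. Its 95% Poisson interval, 0.101 to 0.389, lay above those of the empty vector and F266A inputs, empty vector IP replicate 1 and WT IP replicate 1. It overlapped those of the WT input, empty vector IP replicate 2, WT IP replicate 2 and F266A IP replicate 2.

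Eomes encodes a T-box factor that specifies definitive endoderm and cardiac mesoderm, and lies on the plus strand of chromosome 9 (118387330 to 118395250). The empty vector input had an RPKM of 0.325, and its IPs had 0.409 and 0.491. The F266A input had 0.415 and its IPs 0.318 and 0.417. The WT input had 0.460 and its IPs 0.397 and 0.342. These values rest on 27 to 82 reads and cover a narrow range. IPs of the empty vector line were above their input and those of the WT line below it, and the Poisson intervals of each IP and its input overlapped.

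Mixl1 encodes a homeodomain factor of the nascent mesendoderm and lies on the minus strand of chromosome 1 (182623174 to 182627165). The empty vector input had an RPKM of 0.0869, and its IPs had 0.174 and 0. The F266A input had 0.208 and its IPs 0.339 and 0.249. The WT input had 0.122 and its IPs 0.332 and 0.181. All 4 IPs of tagged protein were above both empty vector IPs. The value of 0 came from the least deeply sequenced library, where it allows an RPKM of up to 0.0974 (3 reads). The other libraries had 10 to 21 reads.

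**Figure D5:**
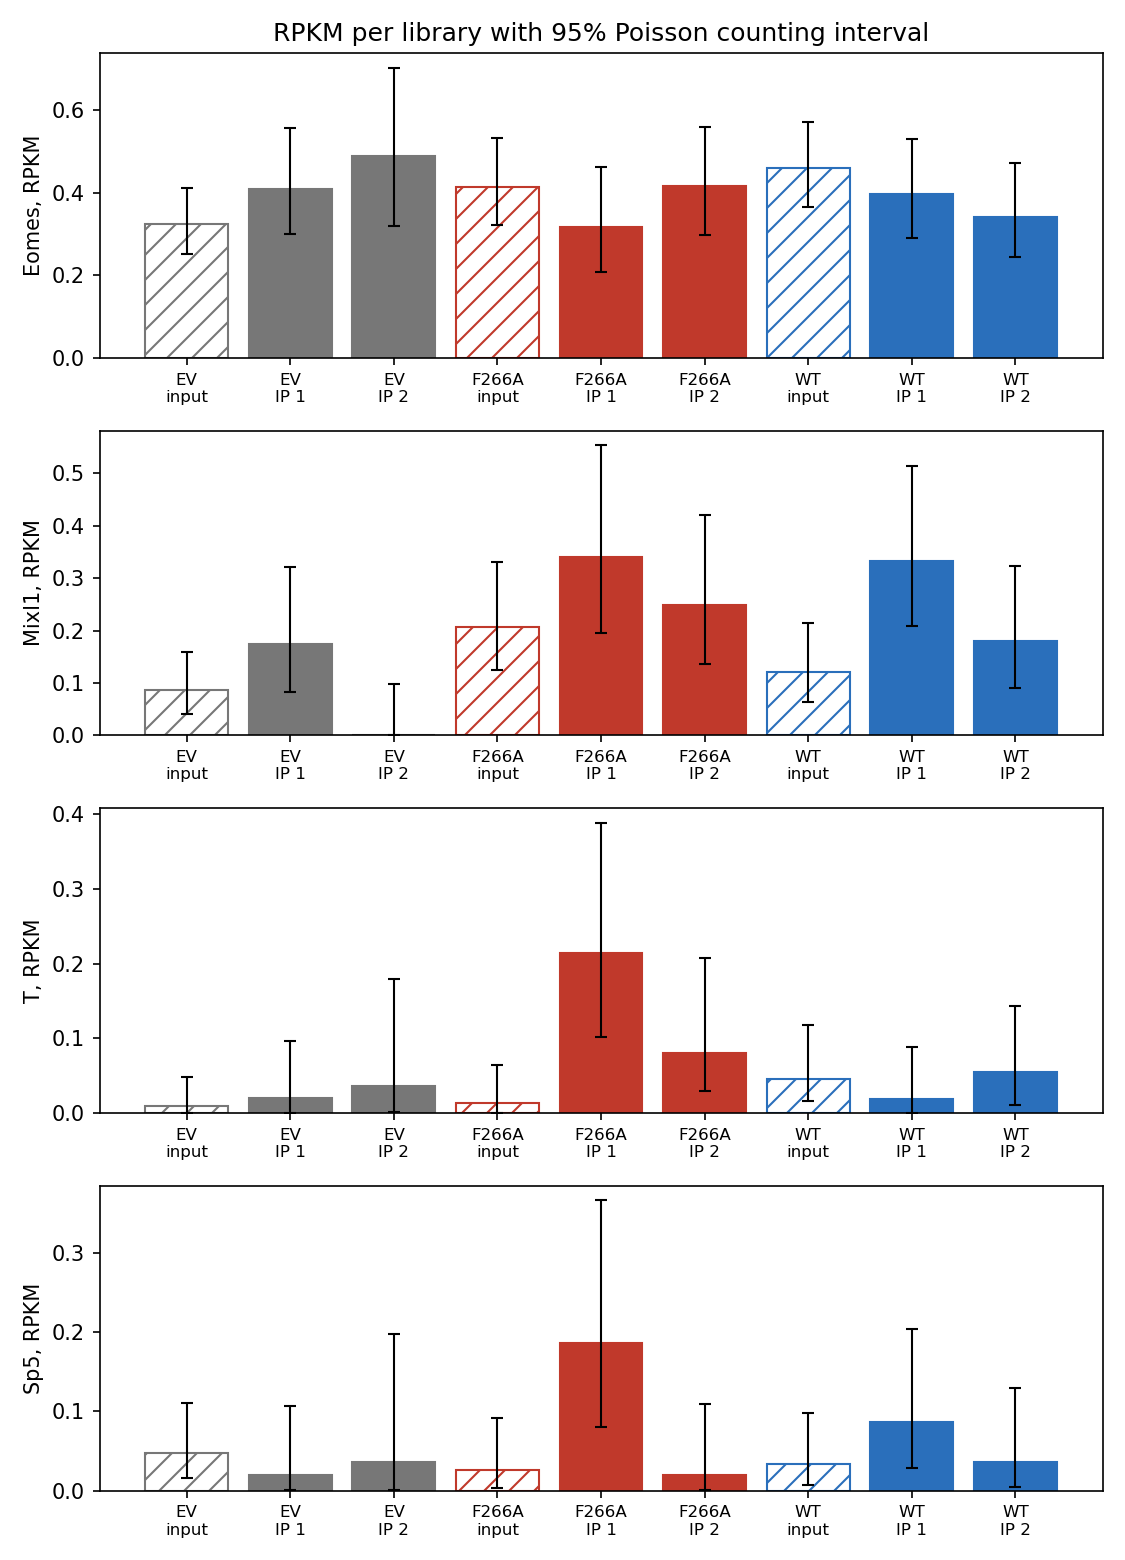
RPKM of Eomes, Mixl1, T and Sp5 in each library (EV, empty vector; hatched bars, inputs; filled bars, IPs) with 95% Poisson intervals of the estimated reads, which cover counting error only (at 0, the bar reaches to 3 reads). T and Sp5 reach 0.214 and 0.186 in F266A IP 1, and Eomes stays within 0.318 to 0.491.

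Gsc, a homeobox gene of the organizer on the minus strand of chromosome 12 (105709419 to 105711537), was at 0 in 4 libraries. Its highest RPKM was 0.127 in empty vector IP replicate 2, from an estimated 2 reads, and both WT IPs had 0.0624 and 0.0951 from 2 and 3 reads. The order of these values is not resolved at 0 to 3 reads a library.

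Fgf8 and Cer1 are the secreted members, the one a growth factor required for cells to leave the streak and the other an antagonist of Nodal, BMP and Wnt ligands. Fgf8 lies on the minus strand of chromosome 19 (45811288 to 45817405). It was at 0 in the WT input, both WT IPs and F266A IP replicate 2, and between 0.0301 and 0.0690 in the other 5 libraries, from 1 to 3 reads each. With 3 reads as the limit, a count of 0 allows an RPKM of 0.0519 for the WT input, 0.0815 for WT IP replicate 1 and 0.0838 for WT IP replicate 2, so a difference from the other lines was not detectable at this depth. Cer1 lies on the minus strand of chromosome 4 (82527655 to 82531052) and had 3 reads over all 9 libraries, 1 in each of the empty vector input, the WT input and WT IP replicate 2.

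For the 7 members below the filter, the same limma fit was run over all 20431 symbols above 0, of which 0.00979% passed for F266A against empty vector IPs, 0.00% for WT against F266A IPs, 0.00979% for WT against empty vector IPs, 15.9% for all IPs against all inputs and 0.196% for the enrichment of WT. None of the 7 members passed in any of these, and none had an unadjusted p under 0.05. For F266A against empty vector IPs, Mixl1 differed by 0.26 with a standard error of 0.11 (adjusted p = 0.364) and T by 0.16 with a standard error of 0.06 (adjusted p = 0.344). Without F266A IP replicate 1 these differences were 0.20 for Mixl1 and 0.07 for T (adjusted p = 0.573 and 0.349), and without F266A IP replicate 2 they were 0.31 and 0.24 (adjusted p = 0.447 and 0.154). The size of the difference of T thus rested on F266A IP replicate 1. A pseudocount of 0.1 was tried after the data were seen. With it T was 0.90 higher in the F266A IPs with a standard error of 0.32 (limma, unadjusted p = 0.0487, adjusted p = 0.306). Mixl1 was 1.24 higher (limma adjusted p = 0.404). Without F266A IP replicate 1 these differences were 0.50 for T and 1.08 for Mixl1.

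Other genes of the streak and of the Wnt pathway came from lists written with earlier results of these data known. Among 22 other streak and mesendoderm genes 5 were tested, and Nodal, a TGF-β ligand that patterns the streak, and its co-receptor Tdgf1 were higher in the IPs than in the inputs, by 0.45 and 0.48 (limma adjusted p = 0.00545 and 0.00732). Among 19 other Wnt target and feedback genes 5 were tested, and Ccnd1 (cyclin D1) and Znrf3, which removes Wnt receptors from the cell surface, were higher in the IPs by 0.43 and 0.27 (adjusted p = 0.0432 and 0.0290). Of all tested genes 56.4% were higher in the IPs, so calls in this direction were common, and nothing particular to these lists is read from their counts. Over the 6 lists 22 genes passed as higher in the IPs. After centring each library on its median 0 of the 22 passed and 8 turned lower, among the named ones Znrf3, Lrp5 and Sfrp4. With quantile normalization 0 passed and 8 turned lower, among them Lrp5, Ctnnb1, Csnk1a1 and Ctbp2. Centring takes the same amount from the difference of every gene and moved the median of all tested genes from 0.30 to -0.01, so it turns every gene whose difference was below that amount, and nothing about single genes is read from these turns.

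The 19 Wnt ligands had summed RPKM between 1.52 and 2.21 and 0 of them were tested. Wnt2b had the highest mean RPKM, 0.718, followed by Wnt7b with 0.470 and Wnt4 with 0.115. Wnt7b shared the low values of Lef1 in the F266A input and F266A IP replicate 2, with 0.0640 and 0.0557, while F266A IP replicate 1 had 0.296 and the other 6 libraries 0.565 to 0.758. Of 15 receptors 8 were tested, and Lrp5 and Ryk were higher in the IPs by 0.24 and 0.38. Of 12 secreted inhibitors 4 were tested, and Sfrp1, Sfrp2 and Sfrp4 were higher in the IPs by 0.67, 0.49 and 0.30. Of 21 genes of β-catenin and its regulators 19 were tested and 12 were higher in the IPs, among them Ctnnb1 (β-catenin itself) by 0.37, the kinases Gsk3a and Csnk1a1 by 0.48 and 0.47, the repressor Tcf7l1 by 0.76 and the corepressor Ctbp2 by 0.37. Over all tested genes the median was 0.30. It was 0.23 for the other Wnt targets, 0.14 for the receptors, 0.39 for the secreted inhibitors and 0.26 for β-catenin and its regulators. The median of the streak list, which is not reported here, lay above that of all tested genes.

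In the other 4 comparisons 0 genes of these 6 lists passed in limma with all libraries, and of the 40 genes tested 5, 5, 1 and 0 had an unadjusted p under 0.05. They stand in the order F266A against empty vector IPs, WT against F266A IPs, WT against empty vector IPs and enrichment of WT, and the shares of all tested genes were 20.4%, 15.5%, 5.69% and 1.38%. Sfrp1 came nearest, with a difference of -0.76 for F266A against empty vector IPs and a standard error of 0.18 (adjusted p = 0.0567). Its RPKM was 13.0 and 12.7 in the empty vector IPs and 6.14 and 8.37 in the F266A IPs, so both F266A IPs were on the same side, unlike those of Lef1. The difference of Sfrp1 was -0.56 without F266A IP replicate 1 and did not pass (adjusted p = 0.128), and -0.96 without F266A IP replicate 2, where it passed (adjusted p = 0.0489), but not over all symbols above 0 (adjusted p = 0.244). Ccnd1, with a difference of -0.31, shared the dependence of Lef1 on F266A IP replicate 1, as it was -0.68 without that library (adjusted p = 0.0493) and 0.06 without F266A IP replicate 2. Over all symbols above 0 Ccnd1 did not pass without F266A IP replicate 1 either (adjusted p = 0.159).

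Genes with the pattern most like that of Lef1 over the 9 libraries were Vps53, Radil and D7Ertd715e, with Pearson's r of 0.977, 0.968 and 0.966 on log2 (RPKM + 1). All 3 were low in the F266A input and F266A IP replicate 2, D7Ertd715e with an RPKM of 1.004 and 1.47 against 4.07 in F266A IP replicate 1. For Axin2 they were Slc6a8, Cmtm7 and Mpc1, with r of 0.948, 0.938 and 0.905. Lef1 and Axin2 themselves had an r of -0.297. Over the 8 libraries without F266A IP replicate 1, r was 0.973, 0.968 and 0.967 for the genes most like Lef1, 0.951, 0.922 and 0.876 for those most like Axin2, and -0.094 between Lef1 and Axin2. These are descriptions over 9 libraries that share lines, inputs and depth.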

How the data were processed

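RIPiT-seq libraries (9, reads of 50 nt) were mapped by the authors to mm9 with TopHat 1.1.3 and deposited as RPKM per gene symbol, from a script of their own. Amplification was not strand-specific. Values were used as deposited, as log2 (RPKM + 1). Whole reads were recovered only approximately, so no count test was run. Reads were estimated from depth and GENCODE M1 exon lengths (21046 symbols with 1 gene of that name), with exact 95% Poisson intervals and a floor of 3 reads for a value of 0. 

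Groups were compared with limma 3.58.1 in R 4.3.3 (lmFit, eBayes with trend, 1 coefficient per line and fraction, Benjamini-Hochberg adjustment over all 9787 genes that passed the filter). Inputs have no replicate, so the spread comes from the 3 pairs of IPs. Python 3.11.15 with pandas 2.3.3, scipy 1.17.1 and matplotlib 3.10.9 was used elsewhere.

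Members and lists were chosen with earlier results of these data known. Genes named from a list are the up to 5 that passed with the lowest adjusted p, or for the ligands the 3 highest in mean RPKM, and the 3 genes most like each tested member. Wnt7b beside Lef1 was described after its values were seen. Tdgf1 is also among the ESC markers. Primed epiblast, trophoblast and feeder marker lists (5, 7 and 6 genes) summed to 12.1 to 27.8, 1.92 to 5.16 and 0.609 to 1.70 RPKM. 1 gene of the streak list and the median of that list are not reported here.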

Additional observations from a re-analysis of the deposited data

Results flagged for a closer look

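Eomes and Sp5 moved in opposite directions between input and IP in the empty vector and WT lines, with both IPs of each line on the same side. The IPs minus the input of the empty vector line differed by 0.125 RPKM on average for Eomes, and those of the WT line by -0.0903. For Sp5 the mean difference was -0.0197 in the empty vector line and 0.0284 in the WT line, from 1 to 5 reads a library. In the limma fit over all 20431 symbols, the difference in enrichment of WT against the empty vector did not pass for Eomes (-0.22, standard error 0.11, adjusted p = 1) or Sp5 (0.07, standard error 0.14, adjusted p = 1).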

How the results depend on the processing

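Depth limits 5 of the 9 members to 0 to 10 reads a library, and 1 input per line leaves the spread of inputs unmeasured. Replicate numbers did not pair the libraries (r of the differences between replicates 0.258, 0.112 and 0.012 across genes). The cause of the changes below was not tested, apart from fewer libraries or genes. With the replicate block, 7 genes passed for WT against empty vector IPs, where 0 did otherwise, and 1 member, Lef1 (0.50, adjusted p = 0.0463), for all IPs against inputs, and the block changed no other call on a member.

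Counts for F266A against empty vector IPs (445) were 2 with no filter, 242 with quantile normalization and 1635 with line and fraction as additive terms, and 0 to 480 with 1 IP left out, where 0 to 1 members passed. For WT against F266A IPs (114) they were 0 with no filter, 976 with additive terms and 0 to 196 with 1 IP left out. For WT against empty vector IPs (0) they were 2 with no filter, 2 with quantile normalization, 17 with additive terms and 0 to 7 with 1 IP left out. For all IPs against inputs (5567) they were 3258 with no filter, 239 with quantile normalization and 153 with centred libraries. There 1 member passed with a pseudocount of 0.1, and 0 to 1 with 1 IP left out. For the enrichment of WT (0) 40 genes passed with no filter. The condition of the study was met by 1157 symbols, and by 1426 to 3354 with 1 IP left out (1977 without F266A IP replicate 1), and by 0 members with the mean of the 3 inputs and 1 to 2 with 1 IP left out. Leaving out an IP can only keep or raise these counts, since it takes a score out of the condition.

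Signs turned for Lef1 in WT against F266A IPs with quantile normalization (-0.0043), without F266A IP replicate 2 and without WT IP replicate 1 (-0.0019), with a range of -0.51 to 0.58 when 1 IP was left out, and in F266A against empty vector IPs without F266A IP replicate 2 (range -0.93 to 0.16). For Axin2 in F266A against empty vector IPs they turned with additive terms (0.019) and without F266A IP replicate 1 (range -0.27 to 0.17). In WT against F266A IPs, Axin2 was -0.034 with quantile normalization and -0.10 with additive terms, and turned without F266A IP replicate 1 and without WT IP replicate 1 (-0.023), with a range of -0.20 to 0.24. In WT against empty vector IPs it turned without WT IP replicate 2 (range -0.075 to 0.011). In all IPs against inputs it was -0.069 with quantile normalization and -0.18 with centred libraries, and in the enrichment of WT -0.0059 with the mean of the 3 inputs.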
